A study of Homo sapiens with 16 samples.

Results

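Ribosome biogenesis genes were followed in MCF-10HER-2 cells, written MCF10HER2 hereafter, which are nontransformed human breast epithelial cells (MCF-10A) transduced to over express the HER-2 oncogene stably. HER2 is a receptor tyrosine kinase, and CP724,714 is a small molecule inhibitor of its kinase. The group of genes was a list of 42 symbols: 6 of the RNA polymerase I machinery, 5 nucleolar and snoRNP (small nucleolar ribonucleoprotein) proteins, 14 factors of the large ribosomal subunit, 15 of the small subunit and 2 other nucleolar factors. A gene was taken where the array annotation gave exactly its symbol, and the detected probe with the highest mean signal stood for it. By this rule 34 of the 18190 symbols of the array were members, and 31 of these were detected on 3 or more arrays and tested. NOL6 was detected on 10 arrays and the other 30 tested members on all 16.

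Parallel cultures in serum-free medium with 10 ng/ml EGF and, as the methods of the study describe, without insulin received 1 µM CP724,714, and RNA was taken every 3 h up to 45 h. The 0 h culture is the only untreated sample, and no vehicle-treated culture at a later time was analysed here. By the methods of the study, the cultures also received fresh medium when treatment began. Effects of fresh medium and of the inhibitor on the treated cultures cannot be told apart. There was 1 array per time point and no replicate, so every test below took neighbouring time points as stand-ins for replicates and its error holds drift in time, and the number of arrays limits the precision. The question put to the data was how the transcripts of polymerase I subunits, nucleolar proteins and processing factors moved over the 45 h, and how they moved beside the MYC transcript.

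Ribosomes are assembled in the nucleolus. RNA polymerase I transcribes the precursor of the large ribosomal RNAs, snoRNPs guide its chemical modification, and a series of assembly factors, many of them helicases, GTPases and scaffold proteins, cut, fold and export the precursors of both subunits. MYC is a transcription factor that binds DNA as a dimer with MAX, most often at the E-box CACGTG, and genes of ribosome biogenesis are among its best known targets. Growth factor receptors such as HER2 act on both MYC and ribosome production through the MAPK and PI3K pathways.

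The E-box was looked for in the promoter windows of the members, because these sequences link the genes to MYC in textbook knowledge. Windows of 300 bases, 250 before and 50 after an annotated start, came from RefSeq (GRCh38.p14). The letters CACGTG read the same on both strands, so a single search covered both. Of the 31 tested members 27 had a window, and 12 of these 27 (44.4%) held the letters in at least 1 window: BYSL, DDX21, EBNA1BP2, FBL, GNL2, GNL3, IMP4, LYAR, NAT10, NOL6, PES1 and SDAD1. The letters were in a window of 12.6% of the 6941 tested genes of the array that matched by symbol and in 8.8% of all 27305 genes. By window the shares were 36.1% of the 36 windows of the members, 9.2% of the 10241 windows of the tested genes and 7.3% of all 35116 windows. A match is a run of letters and not a bound site, and no test was made of these shares. BOP1, DDX18, NOLC1 and RRS1 had no window.
For 5 members whose values are given array by array below, the 30 bases around the match are shown 5′ to 3′ on the strand of the gene, with the E-box in capitals.
LYAR: cggcggcgagtcCACGTGctccccgcggcc
DDX21: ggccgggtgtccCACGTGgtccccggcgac
GNL2: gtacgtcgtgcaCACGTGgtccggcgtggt
BYSL: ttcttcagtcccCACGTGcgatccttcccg
NOL6: ggcatttccgccCACGTGggaagctatgag
The LYAR stretch is chr4:4290068-4290097 on the minus strand, and its E-box begins 64 bases before 1 of the annotated starts of the gene. The DDX21 stretch is chr10:68956604-68956633 on the plus strand, with the E-box 31 bases before an annotated start. In the other 3 genes the E-box lies just inside the transcribed part: it begins at base 4 of the transcript in GNL2 (chr1:37595917-37595946, minus strand), at base 29 in BYSL (chr6:41921515-41921544, plus strand) and at base 14 in NOL6 (chr9:33473894-33473923, minus strand). No CACGTG was found in the windows of WDR12, NCL, DKC1, RRN3, POLR1C or PPAN, which says only that these letters are not there.

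Before the members are described, the arrays need a word. Between 10363 and 11436 of 20589 probes were detected per array, and between 30 and 31 of the 31 tested members. The arrays at 9 h and 18 h were dim, with upper quartile signals of 397 and 418 against 553 to 804 on the others. The background signal was 135.9 to 148.9 on the arrays of 0 to 21 h and 164.5 to 173.9 on those of 24 to 45 h, and the labels name no chip, so a comparison across 21 to 24 h cannot be told apart from this shift. Of the 6 markers of basal breast epithelium, KRT5, KRT17, ITGB4 and CDH3 were detected on all arrays, TP63 on 14 and KRT14 on 1, while the hormone receptors ESR1 and PGR were on none. Of 9 markers of other cell types, COL1A1, PDGFRB and VWF were detected on no array, CD3E on 1, COL3A1 on 2 and PTPRC on 7, while DCN, PECAM1 and CD68 were detected on all 16 with mean signals of 392.2, 325.7 and 1482.1. The largest change of CD68 between time sets was a rise: it was higher by 1.68 log2 at 12 to 21 h than at 6 to 9 h. CD68 was then lower by 0.64 at 24 to 33 h and by a further 0.37 at 36 to 45 h (adjusted p = 0.0218 for this last step). From 0 to 3 h to 36 to 45 h it was higher by 0.78. All of these changes had an adjusted p under 0.05. DCN was higher by 0.14 at 36 to 45 h than at 24 to 33 h (adjusted p = 0.022). Their part in the results below was not tested.

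Values below are log2 signals after background correction and quantile normalization, 1 probe per gene. Probes differ in brightness for the same amount of RNA, so levels are compared within a gene only. Adjusted p-values are from limma with the Benjamini-Hochberg procedure over all 12321 tested probes, and a call is an adjusted p under 0.05. Time points were gathered into the sets 0 to 3 h, 6 to 9 h, 12 to 21 h, 24 to 33 h and 36 to 45 h, and changes are differences of set means ± SE. The borders of these sets came from earlier results of these data. Adjusted p-values across a border, and sets that do not overlap, are therefore description and not independent evidence of a step there.

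With quantile normalization, the plainest common movement of the biogenesis transcripts came late. Between 24 to 33 h and 36 to 45 h, 9 of the 31 members were called lower and none higher, where 9.45% of all tested probes were called lower and 10.3% higher. Those called were LYAR, BOP1, WDR12, DKC1, BYSL, NCL, EBNA1BP2, GNL2 and NOLC1. At an unadjusted p under 0.05 in limma, 12 members were lower and 0 higher, and the share of all probes at that threshold was not computed. In sign, 27 of the 31 were lower, and the median change was -0.16 log2 against 0.00 over all tested probes. All 8 arrays concerned belong to the later background group. Fitted on these 8 arrays alone, 15 members were called lower and none higher (lower 15.9% of all tested probes, higher 16%). The count was 5, all lower, when arrays were scaled to their medians in place of quantiles (11.6% of all tested probes called in either direction), and also 5 when either the 24 h or the 42 h array was left out (14.1% and 14%).

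**Figure D1:**
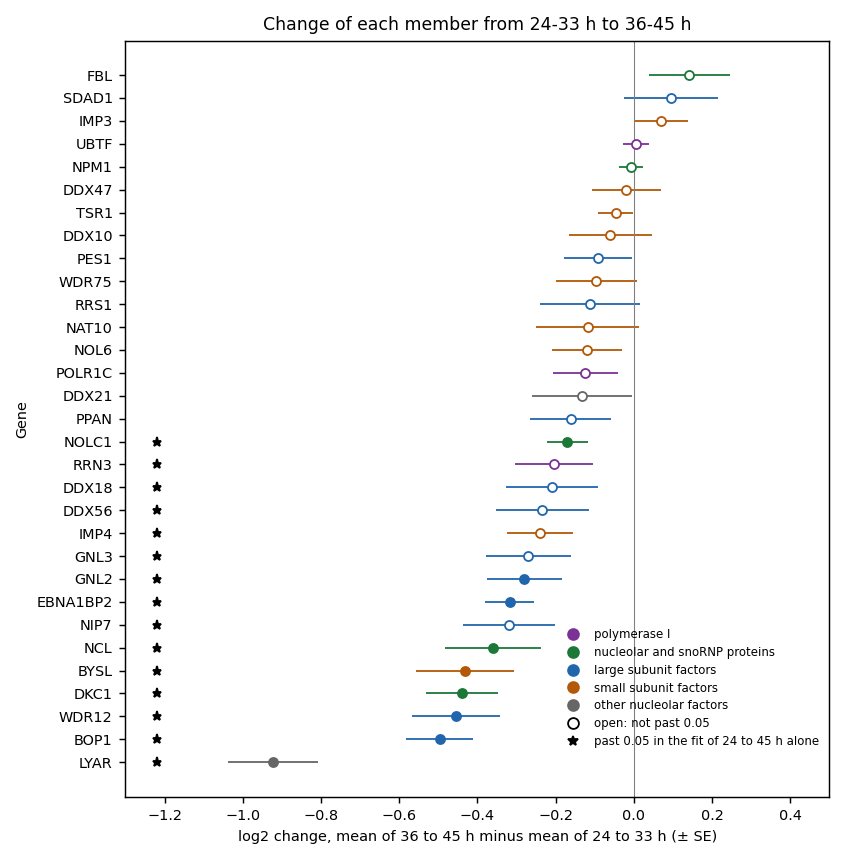
Change in log2 signal from the mean of the 24 to 33 h arrays to the mean of the 36 to 45 h arrays (x axis, bars are SE) for each of the 31 tested members (y axis), coloured by class. Filled points passed an adjusted p of 0.05 in the fit of all arrays (9 members, all below 0), stars mark the 15 that passed it in the fit of 24 to 45 h alone, and LYAR lies farthest to the left at -0.92.

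LYAR, a nucleolar zinc finger protein, changed most. Its log2 signal was 10.69, 10.52, 10.62 and 10.76 at 24, 27, 30 and 33 h and 9.83, 9.68, 9.63 and 9.75 at 36, 39, 42 and 45 h. These 2 sets of 4 arrays did not overlap, and the lowest value of the whole course stood at 42 h. LYAR fell by 0.92 ± 0.12 log2, or 1.90-fold (adjusted p = 3e-05). Earlier the arrays of 0, 3, 6 and 9 h gave 10.68, 10.51, 9.96 and 10.53, followed by 11.16, 10.88, 10.75 and 10.86 at 12, 15, 18 and 21 h. The rise from 6 to 9 h to 12 to 21 h was 0.67 ± 0.14 (adjusted p = 0.00128), so that LYAR rose and fell within the same 45 h.

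Among the nucleolar and snoRNP proteins, 3 of the 5 fell late. DKC1 (dyskerin), the pseudouridine synthase of the H/ACA snoRNPs, was 11.77, 11.57, 11.55 and 11.55 at 24 to 33 h and 11.22, 11.19, 11.09 and 11.18 at 36 to 45 h, with no overlap. It fell by 0.44 ± 0.09 (adjusted p = 0.00271). NCL (nucleolin), a major RNA-binding protein of the nucleolus, was 9.51, 9.57, 9.67 and 9.46 and then 9.18, 9.36, 9.05 and 9.17, again with no overlap, and fell by 0.36 ± 0.12 (adjusted p = 0.0458). NOLC1, a chaperone of snoRNPs, fell by 0.17 ± 0.05 (adjusted p = 0.0275).
The other 2 of this class did not pass the test. FBL (fibrillarin), the methyltransferase of the C/D snoRNPs, differed by 0.14 ± 0.10 (adjusted p = 0.383). NPM1 (nucleophosmin) differed by -0.01 ± 0.03, but its signal was never under 47581 where the highest of the table was 70425, so a change near the top of the scale may be compressed.

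Of the 12 tested large subunit factors 4 fell late. BOP1, a scaffold of the PeBoW complex, fell by 0.50 ± 0.09 (adjusted p = 0.000652) and WDR12, its partner in that complex, by 0.46 ± 0.11 (adjusted p = 0.0081). PES1, the third PeBoW subunit, differed by -0.09 ± 0.09 (adjusted p = 0.524). Whether PES1 and its partners differ in this change was not tested. EBNA1BP2 fell by 0.32 ± 0.06 (adjusted p = 0.00193) and GNL2, a nucleolar GTPase, by 0.28 ± 0.10 (adjusted p = 0.045). GNL2 was 11.31, 11.10, 11.12 and 11.24 at 24 to 33 h and 10.95, 10.91, 10.92 and 10.87 at 36 to 45 h, without overlap.
In the small subunit class 1 of 9 tested fell. This was BYSL (bystin), which acts late in the maturation of the small subunit. Its signal was 9.37, 9.21, 9.22 and 9.23 and then 8.96, 8.66, 8.80 and 8.88, a fall of 0.43 ± 0.13 (adjusted p = 0.0205). The remaining 8 of this class lay between -0.24 (IMP4, adjusted p = 0.0505) and 0.07 (IMP3, adjusted p = 0.547).
None of the 3 tested genes of the polymerase I machinery was called in this comparison. RRN3, the initiation factor that joins polymerase I to its promoter, differed by -0.20 ± 0.10 (adjusted p = 0.168; in the fit of 24 to 45 h alone, 0.0188). The subunit POLR1C, which polymerase III also uses, differed by -0.12 ± 0.08, and UBTF, which organises the rDNA promoter, by 0.00 ± 0.03. POLR1A and POLR1B, the 2 largest subunits, were detected on 1 and 2 arrays and not tested, so the catalytic core of the enzyme was not measured here.

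The members were also read by the E-box letters of their windows, 12 with and 15 without. With the letters, 4 were called lower, 10 were below 0 in sign and the median was -0.19. Without them, 3 were called lower, 13 were below 0 and the median was -0.12. Of all tested probes 9.45% were called lower in this comparison. BOP1 and NOLC1, which also fell late, had no window and stand in neither group. This is a description, and no test of the difference was made.

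Over the whole course, from 0 to 3 h to 36 to 45 h, 15 of the 31 members were called, 12 lower and 3 higher, where 20.5% of all tested probes were lower and 20.9% higher. The median change of the members was -0.17 log2. This comparison spans both background groups, and with median scaling it gave 7 calls, 4 lower and 3 higher, where 53.3% of all tested probes were called.
BYSL fell by 0.94 ± 0.15 (adjusted p = 6.93e-05). It was 9.45 at 0 h and 10.08 at 3 h, and without the 3 h array its change was -0.64, against -0.96 for LYAR and -0.73 for NCL. LYAR fell by 0.88 ± 0.14 (adjusted p = 6.17e-05) and NCL, at 9.91 and 9.88 on the first pair of arrays, by 0.71 ± 0.15 (adjusted p = 0.000903). DKC1, at 11.78 on both, fell by 0.61 ± 0.11 (adjusted p = 0.000243).
GNL2 fell by 0.57, EBNA1BP2 by 0.53, NOL6 by 0.48, RRN3 by 0.45, BOP1 by 0.39, NIP7 by 0.39, PES1 by 0.38 and IMP4 by 0.29, with adjusted p-values between 2.36e-05 for EBNA1BP2 and 0.0354 for NIP7. NOL6, a small subunit factor bound to the early precursor, was 9.39 and 9.22 at 0 and 3 h and 8.95, 8.83, 8.72 and 8.81 at 36 to 45 h. The RRN3 call rested on the 3 h array, and without it the change was -0.17 (adjusted p = 0.294). GNL2 without that array stayed called, at -0.32 (adjusted p = 0.0354). With median scaling RRN3 (-0.14), DKC1 (-0.43), GNL2 (-0.37) and NOL6 (-0.28) were not called.
POLR1C was 11.32 and 11.28 on the first pair and 11.20, 11.00, 11.08 and 11.13 on the last 4. Its change was -0.20 ± 0.10 (adjusted p = 0.136), and 0.02 with median scaling. A second, dimmer probe of POLR1C gave -0.32 ± 0.12 (adjusted p = 0.0341). The second probe of DDX47, an RNA helicase, gave -0.01 where the first gave 0.03, and neither was called.

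A set of 3 members ended higher than they began. WDR12 read 9.32 and 9.40 on the first 2 arrays, 9.60 by 6 h and 10.17 by 9 h. All arrays of 12 to 33 h lay between 10.12 and 10.58, with the highest value at 24 h, and the last 4 were 10.09, 9.86, 9.97 and 9.95. WDR12 rose by 0.61 ± 0.14 from 0 to 3 h to 36 to 45 h (adjusted p = 0.00154), and this is what remained after the late fall given above. SDAD1, a factor of large subunit export, rose by 0.44 ± 0.15 (adjusted p = 0.0215). FBL rose by 0.32 ± 0.13 (adjusted p = 0.0487). The values of FBL were 13.34 at 0 h and 12.72 at 3 h, so its last arrays, at 13.29 to 13.42, lie around the untreated value.

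**Figure D2:**
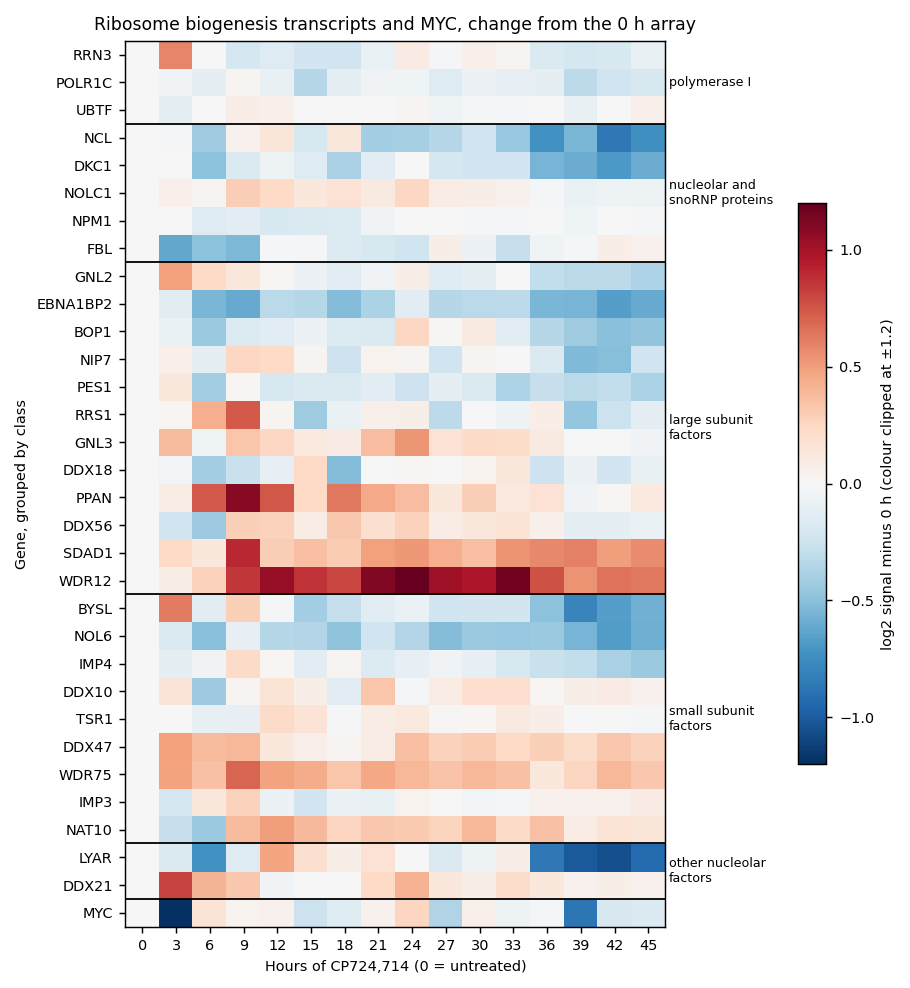
Log2 signal minus the 0 h array for the 31 tested members and MYC (rows, grouped by class) at each time point (columns, hours), blue for lower and red for higher, with the colour clipped at 1.2. The MYC row is darkest at 3 h and next darkest at 39 h. The WDR12 row is red from 9 h on, and the rows of LYAR, NCL, DKC1 and BYSL are bluest from 36 to 45 h.

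By a straight line in time, 8 of the 31 members were called lower over 45 h and none higher (all tested probes called: 11.5% lower, 12.9% higher). These were NCL, BYSL, LYAR, GNL2, DKC1, NIP7, NOL6 and IMP4, with changes over the 45 h from -0.88 for LYAR and BYSL to -0.42 for IMP4. At an unadjusted p under 0.05 in limma, 13 were lower and 2 higher, and the share of all probes at that threshold was not computed. With median scaling 3 were called, 2 lower and 1 higher, where 37.3% of all tested probes were called, and without the 42 h array 5, where 20.7% were. Within 0 to 21 h only WDR12 was called, and higher (all tested probes: 5.84% higher, 5.54% lower), whereas within 24 to 45 h 12 were called, all lower (12.8%, with 12% higher). With the background group as a block 2 members were called (6.15% of all tested probes): BYSL, the only one of the 8 still called, and EBNA1BP2, which the fit without the block had not called. A spline of time with 4 degrees of freedom called 13 of 31 members, close to the 41.9% of all tested probes.

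The early hours held movements in both directions. From 0 to 3 h to 6 to 9 h, 4 members rose and 3 fell (12.9% and 13% of all tested probes). PPAN, a factor of large subunit assembly, was 8.51 and 8.60 at 0 and 3 h and 9.25 and 9.61 at 6 and 9 h. PPAN rose by 0.87 ± 0.15, or 1.83-fold (adjusted p = 0.000255), then fell by 0.40 ± 0.13 to 12 to 21 h (adjusted p = 0.0201) and stood at 8.47 to 8.68 from 36 to 45 h. Its array values are shown because this early rise was noticed in the data. RRS1, which brings the 5S particle into the precursor, rose by 0.58 ± 0.18 (adjusted p = 0.0243) and then fell by 0.69 ± 0.16 (adjusted p = 0.00214). WDR12 rose by 0.52 and IMP3 by 0.30, while EBNA1BP2 fell by 0.51, RRN3 by 0.39 and NPM1 by 0.14. The fall of RRN3 comes from the 3 h array: its values were 9.39 and 9.97 at 0 and 3 h and 9.39 and 9.18 at 6 and 9 h.
From 6 to 9 h to 12 to 21 h, 4 rose (LYAR by 0.67, FBL by 0.42, WDR12 by 0.40 and TSR1 by 0.22) and 4 fell (RRS1 by 0.69, PPAN by 0.40, IMP3 by 0.32 and DDX47 by 0.31), against 16.9% and 17.8% of all tested probes.
Both early comparisons lean on the dim arrays. Without the 9 h and 18 h arrays the first gave 1 higher and 6 lower and the second 8 higher and none lower, where 14.3% and 32.9% of all tested probes were called in either direction. With median scaling they gave 1 higher and 1 lower, and 12 higher and none lower, where 9.56% and 46.5% were called in either direction. The share called higher alone was not computed for this scaling. From 6 to 9 h to 12 to 21 h it moved the median of the members by 0.23 and that of all tested probes by -0.08. With quantile normalization these medians were -0.002 and -0.006. Fitted on 0 to 21 h alone both early comparisons gave few calls, 2 and 3 (13.5% and 22.7%). Without the 6 h array the first gave 11 calls and the second 5 (29.5% and 23.8%).
Between 12 to 21 h and 24 to 33 h limma called none of the members (all tested probes called: 0.179% higher, 0.284% lower). An unadjusted p under 0.05 was reached by 7 members, 4 higher and 3 lower, and the share of all probes at that threshold was not computed.

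**Figure D3:**
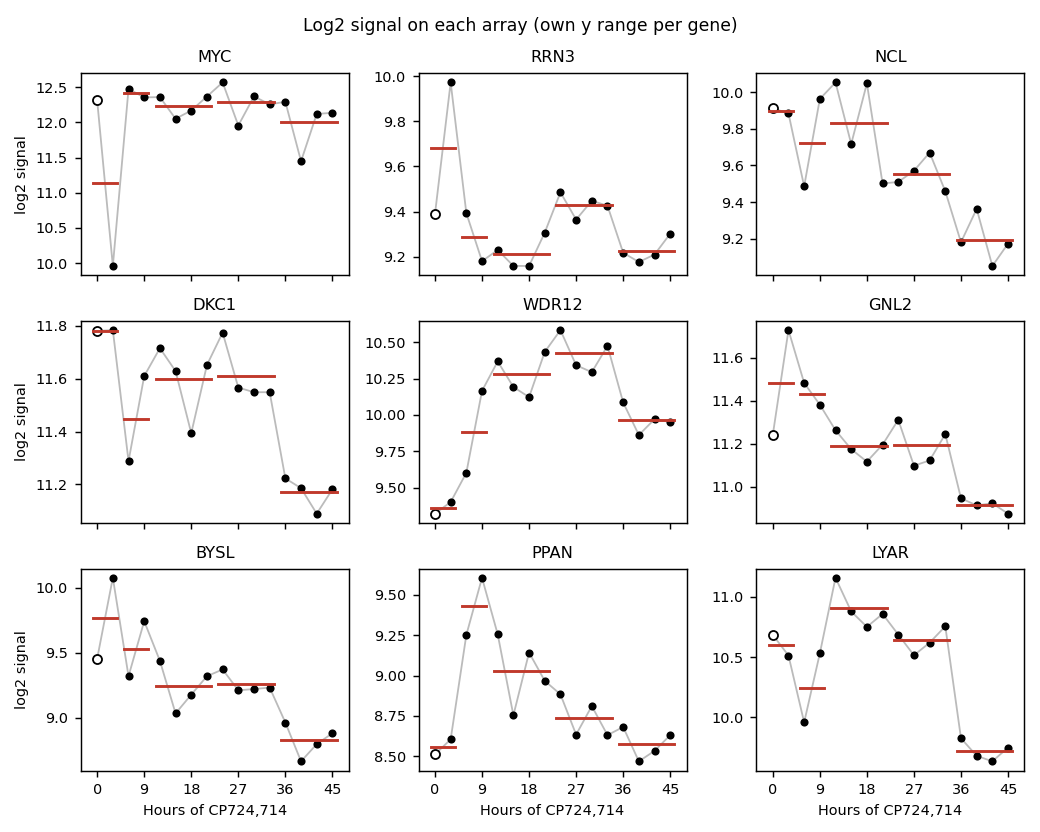
Log2 signal on each array (y axis, own range per gene) against hours of CP724,714 (x axis) for MYC and 8 members, with the untreated array as an open circle and red bars for the means of the 5 time sets. MYC and RRN3 stand apart at 3 h in opposite directions, PPAN peaks at 9 h, and LYAR, DKC1 and GNL2 step down after 33 h.

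By the study's criterion of a 1.7-fold change at any time point, here taken from the 0 h array, 7 of the 31 members passed, 4 higher and 3 lower, where 19.3% of all tested probes passed (10.8% higher, 9.41% lower). No test goes with this count. The higher ones were WDR12 (2.40-fold at 24 h), PPAN (2.14-fold at 9 h), SDAD1 (1.87-fold at 9 h) and DDX21 (1.75-fold at 3 h). The lower ones were LYAR (2.07-fold at 42 h), NCL (1.81-fold at 42 h) and BYSL (1.73-fold at 39 h). Without the dim 9 h array 2 were higher and 3 lower, where 18.5% of all tested probes passed in either direction. A change held over 2 consecutive time points was met by 2 members (13.6% of all tested probes). With median scaling 2 were higher and 7 lower (24.6% of all tested probes in either direction).

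The MYC transcript was marked by the 3 h array. The first 3 arrays gave MYC values of 12.31, 9.96 and 12.47, so that the 3 h array was 5.11-fold below the untreated one and the 6 h array was not. From 9 to 45 h MYC read 12.35, 12.36, 12.05, 12.17, 12.37, 12.57, 11.95, 12.37, 12.26, 12.29, 11.45, 12.12 and 12.14. The next lowest value was that of 39 h, and the others from 6 h on lay between 11.95 and 12.57. In a fit with a term for the 3 h array, added after the value was seen, MYC stood 2.40 ± 0.28 below the curve of the other arrays (adjusted p = 0.000208). The smooth spline did not call MYC (adjusted p = 0.628). From 24 to 33 h to 36 to 45 h MYC differed by -0.29 (adjusted p = 0.583). Its change from 0 to 3 h to 36 to 45 h was 0.86 (adjusted p = 0.0802) and became -0.31 without the 3 h array (adjusted p = 0.327). It was called, and higher, with median scaling (1.07, adjusted p = 0.0441), with array weights (1.78, adjusted p = 5.77e-05), without the 0 h array (2.03, adjusted p = 7.82e-07) and without the 39 h array (1.05, adjusted p = 0.0439).

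**Figure D4:**
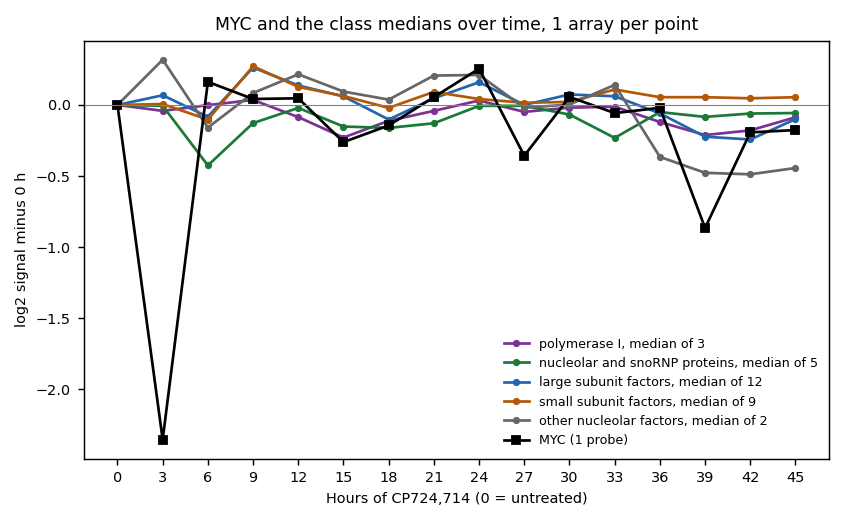
Log2 signal minus the 0 h array (y axis) against hours of CP724,714 (x axis) for MYC (black squares, 1 probe) and for the median of each class of tested members (coloured circles), with 1 array per time point and no error bars. MYC drops by 2.35 at 3 h, where no class median is below -0.05, and the class of LYAR and DDX21 is lowest from 36 h on.

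At 3 h, on the same array, limma called no member lower and 1 higher (all tested probes called: 1.01% lower, 3.12% higher). At an unadjusted p under 0.05 in limma, 1 was lower and 4 higher, and the share of all probes at that threshold was not computed. The called member was RRN3, with 9.39, 9.97 and 9.39 on the first 3 arrays. RRN3 stood 0.62 ± 0.15 above the curve of its other arrays (adjusted p = 0.024). DDX21, a nucleolar RNA helicase, went from 11.70 to 12.51 and then 12.11, a deviation of 0.66 ± 0.20 (adjusted p = 0.0715). BYSL went from 9.45 to 10.08 and then 9.32, a deviation of 0.62 ± 0.22 (adjusted p = 0.128). The median deviation of the members was 0.06, with 19 of 31 above 0. The count rests on RRN3 alone. It was 0 with median scaling, with another background correction, with array weights and without the 0 h array (1.61%, 2.44%, 0.252% and 8.48% of all tested probes called). It was 2 without the 6 h or the 24 h array (10.2% and 4.37%) and 3 without that of 9 h (4.46%).
Fitted as the difference from the MYC probe on the same array, no member had a course called different from that of MYC in limma (0.422% of all other tested probes were called). The count was 0 also at an unadjusted p under 0.05. From 0 to 3 h to 6 to 9 h none was called relative to MYC, while 21 were lower and 0 higher at an unadjusted p under 0.05 in limma. MYC itself moved by 1.28 between these sets, and every difference carries that move. The share of all probes at this unadjusted threshold was not computed, so the 21 cannot be read as a result about the members. From 0 to 3 h to 36 to 45 h, 2 members fell relative to MYC, BYSL and LYAR (3.94% of the probes lower, 0.0325% higher). At an unadjusted p under 0.05, 16 were lower and 0 higher over this span, again without a share of all probes to set beside them. Here the single low MYC value lies inside the first time set, which widens the error of all these fits. Without the 3 h array no member differed from MYC in this comparison (6.35% of the probes did). Without the 0 h array all 31 did, but so did 99% of the probes, so this count follows the MYC value and is not a result about the members. The count was also 0 without the 36, 42 or 45 h array (1.58%, 1.78% and 1.82% of the probes) and 6 without that of 39 h (7.32%). It was 1 without that of 18, 21, 30 or 33 h (2.78% to 2.84%).

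MYC acts within a network of MAX partners, some of which repress its targets. Of 11 detected genes, 2 rose and 1 fell from 0 to 3 h to 36 to 45 h, where 20.9% of all tested probes rose and 20.5% fell. The one that fell was MXD1, a MAX partner that represses MYC targets: it read 8.75 and 8.70 at 0 and 3 h and between 8.09 and 8.27 on all later arrays. MXD1 fell by 0.59 already at 6 to 9 h (adjusted p = 2.75e-07). MXI1 and MLX rose by 0.08 and 0.07, and MAX differed by -0.05 (adjusted p = 0.179). MNT, another repressing MAX partner, stood 1.01 above its curve at 3 h (adjusted p = 0.00683). MYCL, MYCN, MXD3, MXD4 and MLXIP, like MYC, were not called over the whole course, with changes of -0.25, 0.02, 0.50, -0.11 and 0.02. MXD4 rose late by 0.57 (adjusted p = 0.0255), as did MXI1 by 0.07. The widest changes of the network lay from 6 to 9 h to 12 to 21 h, between -0.57 and 1.64. There 1 gene was called higher and 3 lower, where 16.9% of all tested probes were called higher and 17.8% lower.

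The wider pathway was read with lists that also took older symbols, against the shares of all tested probes given above (late 10.3% higher and 9.45% lower, whole course 20.9% and 20.5%). Of 100 tested other biogenesis factors, 13 fell and 3 rose from 24 to 33 h to 36 to 45 h, and 28 fell and 14 rose over the whole course, with medians of -0.06 and -0.08. The largest falls of the whole course were those of NOP56 (0.91), the core protein of C/D snoRNPs, NOP10 (0.65), of the H/ACA snoRNPs with dyskerin, and RRP36 (0.63). The largest rises were those of DIMT1 (1.11), the dimethylase of the small subunit RNA, EXOSC3 (0.79), a subunit of the RNA exosome, and EMG1 (0.74).
The ribosomal proteins, the products that these factors assemble, were read the same way. Of 75 tested, 22 rose and 3 fell late, and 16 rose and 9 fell over the whole course, with medians of 0.03 and 0.01, and the number that rose over the whole course is close to the share of all tested probes. RPS15 fell by 2.04, RPL29 by 1.26 and RPS7 by 1.13 over the whole course, while RPL28 rose by 0.99, RPL23 by 0.83 and RPL27A by 0.73. Transcripts of ribosomal proteins have many processed pseudogenes, so their probes may read more than 1 gene.
Of 18 genes of the polymerase III machinery, which makes the 5S RNA, 6 fell and 1 rose late, and 8 fell and 5 rose over the whole course. GTF3C6 fell by 0.70, POLR3K by 0.68 and GTF3A by 0.61. POLR3GL rose by 1.06, POLR3E by 0.55 and MAF1, the repressor of polymerase III, by 0.42. Whether these lists differ from the members was not tested.

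A further 5 listed genes were on the array under older symbols only and stand outside the counts above. RRP12 (KIAA0690) began at 9.48, 9.80 and 8.97 and was never above 8.92 later. It fell by 1.03 ± 0.09 over the whole course (adjusted p = 3.49e-08), and stood 0.57 above its curve at 3 h (adjusted p = 0.00683). NOB1 (NOB1P), the nuclease that makes the final cut of the small subunit RNA, rose by 0.62 ± 0.11 (adjusted p = 0.000156) and by 0.36 in the late comparison. MRTO4 (C1orf33) fell late by 0.53 (adjusted p = 0.00692). RRP1B (KIAA0179) and RRP9 (RNU3IP2) were not called late or over the whole course. With these 5, the late comparison gave 10 lower and 1 higher of 36.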

How the data were processed

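RNA of MCF10HER2 cells was measured on Illumina Ref-8 v2 arrays, 1 per time point. The authors deposited, per probe, the intensity before any normalization between arrays, and beside it a detection p-value that sets the probe against the negative controls of its array. The labels give CP724,714, the time and 1 replicate, and samples were grouped by time.

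Background was removed from the intensities by neqc (limma 3.58.1, run in R 4.3.3, offset 16, which pulls fold changes of dim probes toward 1), and the values were quantile normalized and taken to log2. Quantile normalization assumes that most transcripts do not shift together. A probe was tested if at least 3 arrays gave it a detection p under 0.05, which kept 12321 of 20589. Models were fitted by lmFit and moderated by eBayes (trend): a natural spline of time (4 degrees of freedom), a line, contrasts of time sets, and the same on the difference from the MYC probe. The term for the 3 h array was added after seeing the data. Code was tested on simulated data.

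The members, the lists and the borders of the time sets were chosen with earlier results of these data known, so they are not independent evidence. All members may be named. Array values are given for MYC and the 2 members of each class that moved most between 0 to 3 h and 36 to 45 h, and of other lists up to 3 called genes in each direction. Of the 42 listed genes, 34 matched a symbol, 5 an older symbol only, and POLR1E, WDR43 and PNO1 were not matched. POLR1A, POLR1B and WDR3 were detected on too few arrays. Alternatives covered normalization, background correction, the detection filter, several probes per gene, dim arrays, array weights, leaving out each array, the background group, the fold threshold and older symbols.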

Additional observations from a re-analysis of the deposited data

How the results depend on the processing

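Of 263 changes of named genes under other settings, 249 kept their direction and their side of the threshold, 6 gained a call, 5 lost it and 3 reversed. All are changes from 0 to 3 h to 36 to 45 h. Leaving out an array of 6 to 33 h removes none of the arrays compared, and the detection filters and older symbols leave the log2 changes as they were. The 249 is therefore no measure of stability. Every gain, loss or reversal came with median scaling, array weights or without the 0, 3 or 39 h array. POLR1C reversed with median scaling (0.024), and MYC (-0.31) and DDX21 (0.074) without the 3 h array, while without the 0 h array MYC gave 2.03 and DDX21 -0.73, the other ends of their ranges. With median scaling the time-dependent members were 5 in place of 13 (38.9% of all tested probes, 41.9% in the main fit). Those with a linear change were 3 in place of 8 (37.3%, 24.4%) and those called at 6 to 9 h 2 in place of 7 (9.56%, 25.8%). From 24 to 33 h to 36 to 45 h the calls were 5 in place of 9 (11.6%, 19.8%). Over the whole course they were 7 in place of 15 (53.3%, 41.4%). At 3 h they were 0 in place of 1 (1.61%, 4.12%) and relative to MYC 0 in place of 2 (2.42%, 3.98%). Median scaling moved the median of all tested probes over the whole course to -0.095 and that of the members from -0.17 to -0.05. With another background correction 0 members were called at 3 h (2.44% of all tested probes). Without a detection filter 1 member was called between 12 to 21 h and 24 to 33 h (0.209% of all probes). Leaving out both dim arrays, 0 differed from MYC over the whole course (2.19% of all tested probes). With array weights the time-dependent members were 20 (54.8% of all tested probes) and those with a linear change 14 (25.2%). The first 4 comparisons of time sets in order gave 3, 2, 2 and 14 calls (10.7%, 20.8%, 5.79% and 34.9%), and the 3 h term 0 (0.252%). The courses that differed from MYC were then 5 (14.7%) and the members that differed from MYC at the end 31 (96.4%). With the background group as a block 5 were time-dependent (28.9% of all tested probes) and 2 had a linear change (6.15%). Within 0 to 21 h 1 member had a linear change (11.4%). Fitted on 0 to 21 h alone the first 2 comparisons gave 2 and 3 calls (13.5% and 22.7%), and the late one fitted on 24 to 45 h gave 15 (31.8%). A threshold of 2-fold left 3 members (10.9% of all tested probes) and 2 consecutive time points left 2 (13.6%). With older symbols 2 were called at 3 h (4.12%).

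Leaving out each array in turn gave 9 to 16 time-dependent members (37% of all tested probes where it was 9, 48% where it was 16). Those with a linear change were 5 to 10. They were 5 without the 42 h array (20.7%) and 10 without the 0 h or the 6 h array (20.9% and 23.1%). The comparisons of time sets in order gave 6 to 11, 5 to 12, 0 to 1 (1 without the 0, 3 or 21 h array), 5 to 13 and, over the whole course, 12 to 15 calls. Of all tested probes 29.5% were called where the first gave 11. For the second, 23.8% were called where it gave 5 and 39.4% where it gave 12. For the late one, 14.1% and 14% were called where it gave 5 and 24.7% where it gave 13. The fold criterion gave 5 to 7 (18.5% to 19.4% of all tested probes). The 3 h term gave 0 to 3 (8.48% of all tested probes where it was 0 and 4.46% where it was 3). The course against MYC gave 0 to 2 (2 without the 0 h array, where 9.49% of all tested probes were called). The contrast against MYC gave 0 to 31 (99% of all tested probes where it was 31). No paired analysis was possible because the labels give a single replicate throughout. With 1 array per time point and no untreated course, time in culture, the change of medium and the inhibitor cannot be told apart. The cause of these differences between settings was not tested.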
